A study of Mus musculus with 6 samples.

Results

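The genes described here are heat shock proteins and their partners, the chaperones that hold, fold and refold other proteins. They were chosen by gene name from the families Hspa, Hspb, Hspd, Hspe, Hsph, Hsp90a, Dnaja, Dnajb, Dnajc and Cct, leaving out Hspa5 and Dnajb9, which serve the endoplasmic reticulum. The rule found 75 of the 19613 genes in the table, and it used no measured value. The cells were embryoid bodies containing motor neurons, made from the HBG3 line of mouse embryonic stem cells, in which a fluorescent reporter marks Hb9 (the motor neuron gene Mnx1), and their RNA was read on 6 Affymetrix exon arrays. All 6 cultures, named replicates 2, 4, 5, 6, 7 and 8 in the labels, had been exposed to blood fluid from mice of the strain B6CBA-Tg(HDexon1)62Gpb/3J, a model of Huntington's disease that carries exon 1 of the human huntingtin gene. Per the methods of the study, the donor mice were male carriers sampled before symptoms. The sample labels name the fluid plasma and the series title names it serum, and it is called serum below. The cultures are aggregates in which motor neurons are only a part of the cells, all from the same stem cell line, and no arrays without this serum were analysed here. The values therefore give levels and their variation between cultures, and no response to the serum.

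Hsp70 proteins bind exposed hydrophobic stretches of unfolded proteins, and J-domain proteins deliver those clients and start the hydrolysis of ATP that locks them in place. Hsp110 proteins release the nucleotide, Hsp90 matures kinases and receptors, small heat shock proteins hold clients without ATP, and the CCT ring folds actin and tubulin. Some members are made at all times, while others are switched on by heat shock factors, chiefly HSF1, which binds heat shock elements built from repeats of nGAAn in alternating orientation. Chaperones of this network are widely studied in neurons because they act on aggregating proteins such as polyglutamine proteins. Here the members known for strong induction, called inducible, were Hspa1a, Hspa1b, Hsph1, Hsp90aa1, Dnajb1 and Hspb1. The members known for steady expression, called constitutive, were Hspa8, Hspa4, Hspa14, Hsp90ab1, Dnaja2, Dnajb6, Dnajc5 and Dnajc7. These names are background knowledge. The lists were, however, drawn up with earlier results of these data known, so their choice was not blind to the arrays.

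Median intensities of the arrays ran from 296 to 311. Small SDs depend on such offsets, as seen under median centring, which sets the arrays to a common median. The SD then went from 0.048 to 0.072 for Dnaja2, from 0.021 to 0.037 for Cct2 and from 0.042 to 0.028 for Hspa4. The average Pearson's r of each array with the other arrays over all genes was lowest in replicate 8, at 0.992, and at least 0.994 in each of the rest. Of the motor neuron markers matched, 6 of 6 were above background, among them Chat at 9.42 ± 0.097 and Isl1 at 10.33 ± 0.12 (log2 intensity, mean ± SD, n = 6). Of the 3 matched blood markers, Hbb-b1 and Ptprc were below background and Cd68 was above it, at 8.31 ± 0.078 (log2 intensity, SD, n = 6). The spread of a gene is given throughout as the SD of its log2 intensity over the 6 arrays, and differences between the sera cannot be told apart from differences between the cultures.

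Of the 75 members, 65 had a mean log2 intensity above the background level of 7.47, or 86.7%, whereas 65.2% of all genes in the table did. The background level is a level that few olfactory receptor genes, which serve the nose, exceeded. The 10 members below it were Hspa1b, Hspa1l, Hspb3, Hspb7, Hspb9, Dnajb7, Dnajc22, Dnajc28, Cct6b and Cct8l1. Dnajb7, Hspa1l, Hspb9 and Cct6b are known mainly from the testis, and Hspb3 and Hspb7 from muscle and heart. The member means ran from 5.22 for Dnajb7 to 13.15 for Hspa8 on the log2 scale. Each gene has its own probes with their own affinity, and these intensities therefore do not rank the amounts of the transcripts.

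**Figure D1:**
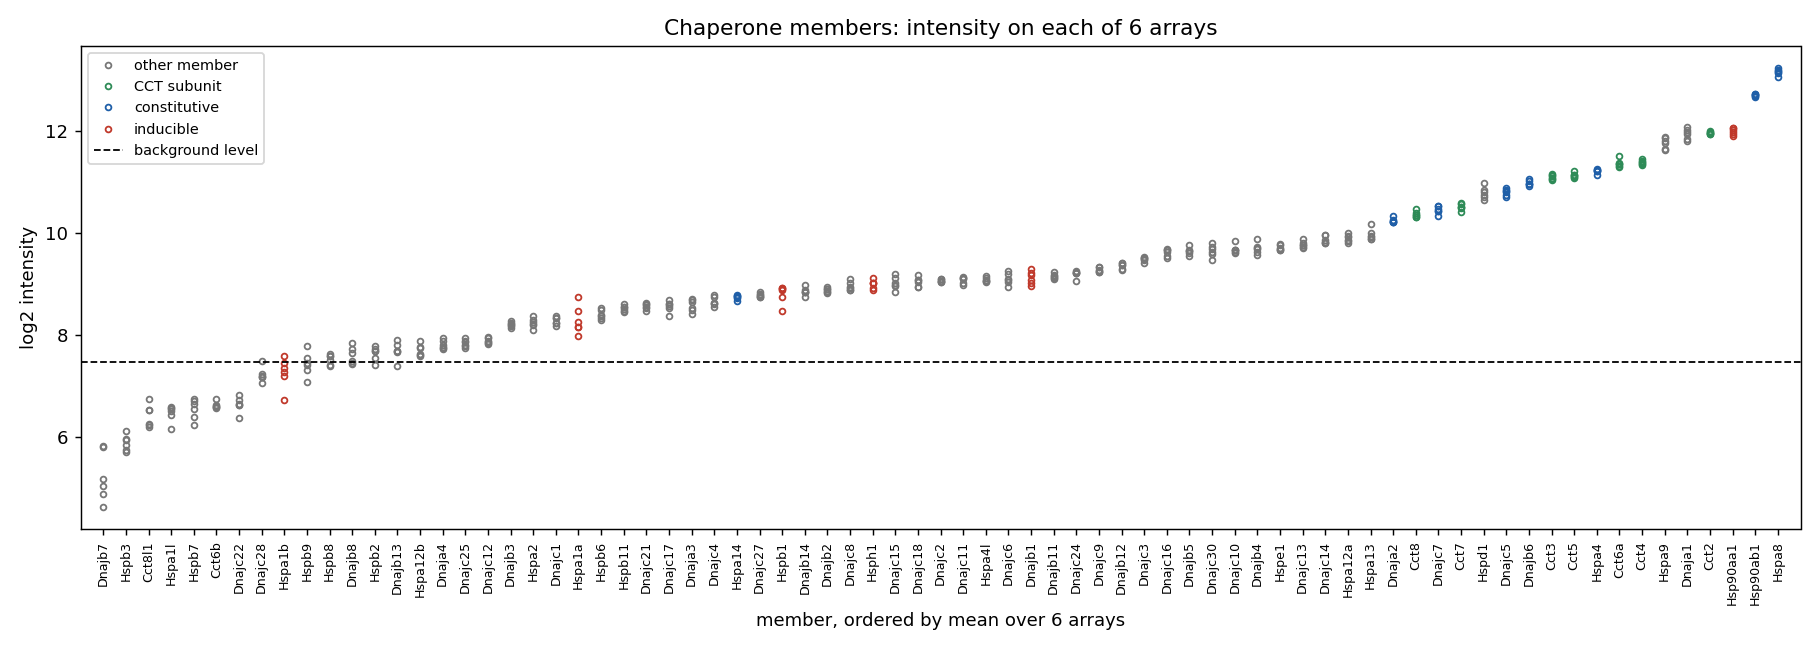
Log2 intensity (vertical axis) of each of the 75 members (horizontal axis, ordered by mean), with 1 open circle for each of 6 arrays and a dashed line at the background level of 7.47. The circles of Hspa1a spread from 7.97 to 8.74, whereas those of Hsp90ab1 lie between 12.67 and 12.73. Because probes differ between genes, heights do not rank transcript amounts.

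Inducible members varied more between the 6 cultures than constitutive ones. The median SD was 0.13 over the 5 inducible members above background and 0.052 over the 8 constitutive members, against 0.076 over all 12793 genes above background. The SDs of the 5 inducible members ran from 0.063 in Hsp90aa1 to 0.27 in Hspa1a, and 4 of them exceeded the median of all genes. The SDs of the constitutive members ran from 0.021 in Hsp90ab1 to 0.074 in Dnajc7, and 0 of 8 exceeded it. The groups therefore overlapped, since Hsp90aa1 at 0.063 lay below Hspa8, Dnajc5 and Dnajc7. With all 6 inducible members, Hspa1b included, their median SD was 0.15. The difference of the medians, 0.076, was carried in part by replicate 2. Without that array the inducible median was 0.073 and the difference 0.022. With a broader inducible list, given below, the difference was 0.051. No test was made over genes, which are not replicates, so the difference is a description of these members.

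The SD falls with the level of a gene, and most constitutive members had higher intensities than most inducible ones. Each SD was therefore also placed among those of the 500 genes nearest to its gene in mean level. Hspa1a had a larger SD than 98.6% of its neighbours, Hspb1 than 96.0%, Dnajb1 than 86.6%, Hsph1 than 62.2% and Hsp90aa1 than 55.0%. Over all 6 arrays, all 5 thus lay above the middle of genes of like level, and 3 of them were far above it. This placement was added after the values were seen and was not repeated with arrays left out. Without replicate 2 the SD was 0.073 for Hspb1, 0.071 for Hsph1 and 0.049 for Hsp90aa1. The median SDs of their neighbours over 6 arrays were 0.072, 0.072 and 0.059. Hspa1a and Dnajb1 kept SDs of 0.30 and 0.14 without that array, against neighbour medians of 0.087 and 0.074. Members of a broad inducible list were not all above the middle. This list adds Dnaja1, Dnaja4, Dnajb4, Hspa4l, Hspb8, Hspd1 and Hspe1. Of its 12 members above background, 8 lay above the middle. The rest were Hspa4l at 16.2%, Dnaja4 at 24.2%, Hspb8 at 30.4% and Hspe1 at 31.6%. Among the constitutive members, Hsp90ab1 had a larger SD than only 3.60% of its neighbours and Hspa14 than 13.4%. Hspa4 and Dnaja2 also had small SDs, larger than 28.2% and 26.6% of their neighbours. Dnajb6 sat at 49.2%, while Hspa8, Dnajc5 and Dnajc7 lay above the middle at 58.4%, 62.0% and 71.0%. Part of the raw difference between the groups therefore goes with level, and the steadiest member relative to its level was the Hsp90 gene Hsp90ab1 among the constitutive list.

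**Figure D2:**
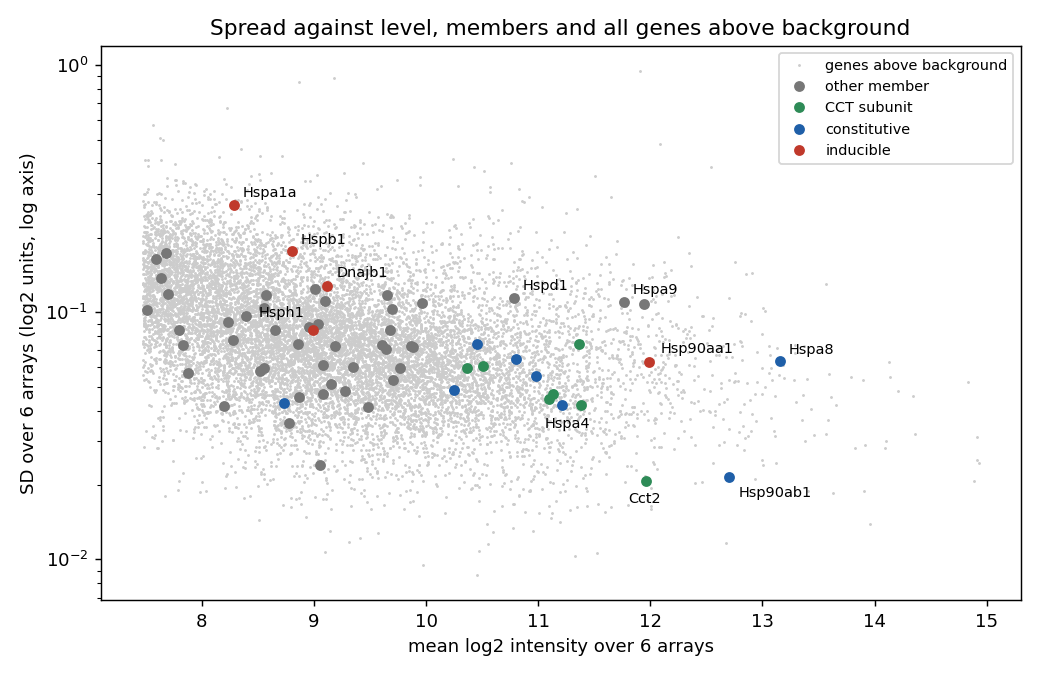
SD over 6 arrays (vertical log axis, log2 units) against mean log2 intensity (horizontal axis) for all 12793 genes above background (small grey dots) and the 65 members above background (large dots, coloured by group). Hspa1a at 0.27, Hspb1 at 0.18 and Dnajb1 at 0.13 lie in the upper part of the cloud at their levels, and Hsp90ab1 and Cct2, both at 0.021, lie at its lower edge.

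The Hsp70 family held the member with the largest spread above background. Hspa1a encodes the classical stress-induced Hsp70, and its log2 intensity had a lowest value of 7.97, a median of 8.20 and a highest value of 8.74. Its mean was 8.29 ± 0.27 (SD, n = 6), a range of 1.70-fold. Replicate 5 was highest and replicate 6 lowest, and without replicate 5 the SD was 0.18. All 6 arrays lay above background. With the 99th percentile of the olfactory receptor genes as a stricter background, the mean of Hspa1a lay below it. Hspa1b, a neighbouring gene for a nearly identical protein, had values from 6.71 to 7.57 with a median of 7.30, and only 1 array, replicate 7, lay above background. Replicate 8 had the lowest value, and leaving it out took the SD from 0.30 to 0.15. Because the genes are nearly identical copies, their values are uncertain where probes match both.

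The promoters of this pair are shown because the genes share a heat shock element yet their arrays ran in opposite order. Over the 250 bases before the transcription start, the RefSeq promoters differed at 3 bases. In the stretches from position -150 to -51 relative to the start, capitals mark an element of 2 units (GAA, 2 free bases, TTC), which begins at position -104 in both (GRCm38.p6, minus strand, chr17:34972207-34972306 for Hspa1a and chr17:34959289-34959388 for Hspa1b):
Hspa1a: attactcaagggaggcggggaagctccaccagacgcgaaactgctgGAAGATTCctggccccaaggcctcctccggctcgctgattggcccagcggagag
Hspa1b: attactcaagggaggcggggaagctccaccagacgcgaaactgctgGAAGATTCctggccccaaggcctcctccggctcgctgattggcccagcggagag

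Despite this likeness, Pearson's r between Hspa1a and Hspa1b over the 6 arrays was -0.59 (exact permutation p 0.215, adjusted p 0.893 over 12793 genes). Spearman's rho was -0.89 (exact permutation p 0.0333, adjusted p 0.541). Without replicates 5 and 8, the arrays farthest from the Hspa1a median, r was -0.48. Hspa1b lay near or below background on every array, so its order rests on low signal.

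Hspa8, the constitutive Hsp70 (Hsc70) that also uncoats clathrin vesicles, had a lowest log2 intensity of 13.05, a median of 13.16 and a highest of 13.24. The SD was 0.064 and the range was 1.14-fold. Replicate 2 was lowest and replicate 8 highest. Hspa14, a Hsp70 that associates with ribosomes, ran from 8.66 to 8.78 with a median of 8.75 and an SD of 0.043. The SD of Hspa1a was 4.29 times that of Hspa8, and the ratio ranged from 2.51 without replicate 5 to 7.46 without replicate 2. These genes lie far apart in level, and the median SD of the 500 genes nearest in level was 0.087 for Hspa1a and 0.056 for Hspa8, so Hspa8 itself lay slightly above the middle of its neighbours. Hspa1a and Hspa8 were close to unrelated over the arrays, with an r of 0.096 (exact permutation p 0.854, adjusted p 0.995) and a rho of -0.029 (exact permutation p 1, adjusted p 1). Without replicates 2 and 8 the r was -0.32.

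Hsp110 proteins serve Hsp70 as nucleotide exchange factors. Hsph1, the inducible Hsp110, had a lowest log2 intensity of 8.88 in replicate 2, a median of 9.02 and a highest of 9.11 in replicate 8. Hspa4, its constitutive relative, had a lowest value of 11.13, a median of 11.23 and a highest of 11.25. Its order was nearly the reverse of that of Hsph1, being lowest in replicate 8 and highest in replicate 2. Pearson's r between Hspa4 and Hsph1 was -0.84 (exact permutation p 0.0208, adjusted p 0.627 over 12792 genes), with a rho of -0.94 (exact permutation p 0.0167, adjusted p 1). The relation did not pass adjustment over the table, which the exact test with 6 arrays could hardly allow for any pair. Without replicates 2 and 8 r was -0.55. Hspa4 stayed within 1.08-fold over the arrays, and without replicate 8 its SD was 0.017.

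A longer heat shock element of 3 units, either GAA, TTC and GAA or TTC, GAA and TTC with 2 free bases between neighbouring units, was searched on both strands. It was found in the promoter windows of 4 of the 61 members listed in the RefSeq table, or 6.56%. Among all 27025 genes of that table the share was 0.662%, and each window held 250 bases before and 50 after the start. The 4 members were Hsph1, Hspd1, Hspe1 and Dnajb6. The windows of Hspd1 and Hspe1 overlap by 285 bases, so the same element is counted for both genes. The inducible list held 1 of these, Hsph1, among its 5 genes with a window, and the constitutive list also held 1, Dnajb6, among its 5. Elements of 2 units, GAA and TTC in either order with 2 free bases between them, which every element of 3 units contains, were found in 19 of 61 members, or 31.1%, against 17.0% of all genes. They were present in 4 of 5 inducible genes and in 1 of 5 constitutive genes. The counts again include both Hspd1 and Hspe1, and both Hspa1a and Hspa1b with their near-identical promoters, so they are not all separate elements. Members without an entry in the table were Cct4, Dnajc2, Dnajc5, Dnajc11, Dnajc12, Dnajc18, Dnajc22, Dnajc30, Hsp90aa1, Hsp90ab1, Hspa8, Hspa9, Hspa13 and Hspb2. These matches describe the letters of the windows and not binding of a factor. The Hsph1 element, shown in capitals, began 16 bases after the start (GRCm38.p6, minus strand, chr5:149636282-149636306):
Hsph1: tgcagaTTCTGGAAAGTTCtcctca

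The cytosolic Hsp90 pair had a small spread in both members. Hsp90aa1, the inducible Hsp90 alpha, had a lowest log2 intensity of 11.90 in replicate 2, a median of 11.99 and a highest of 12.06 in replicate 8. Hsp90ab1, the constitutive Hsp90 beta, had a lowest value of 12.67, a median of 12.70 and a highest of 12.73. All 6 arrays of Hsp90ab1 therefore lay within 1.04-fold, the narrowest of the constitutive list. The SD of Hsp90aa1 was 2.94 times that of Hsp90ab1, and this ratio stayed between 2.46 and 3.87 when any 1 array was left out. The difference of the pair within an array moved by 0.14 on the log2 scale, or 1.10-fold, with replicates 2, 4 and 5 below its mean and replicates 6, 7 and 8 above. Their r was 0.48 (exact permutation p 0.343, adjusted p 0.959) and their rho 0.60 (exact permutation p 0.242, adjusted p 0.955). Without replicates 5 and 6 the r was 0.89.

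**Figure D3:**
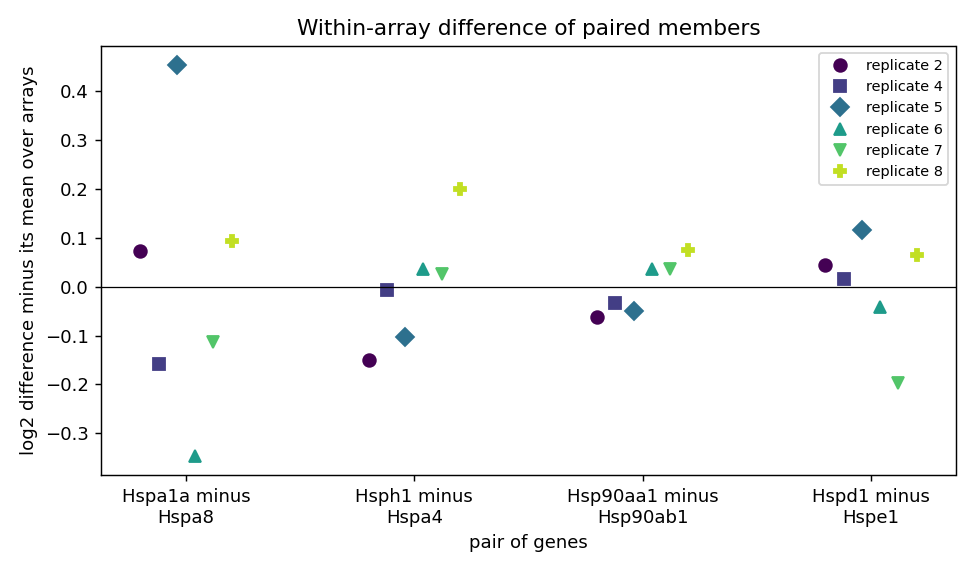
Log2 difference of paired members within each array, minus its mean over the 6 arrays (vertical axis), for 4 pairs (horizontal axis), with 1 symbol for each array. The difference of Hspa1a and Hspa8 spans 0.80 and that of Hsp90aa1 and Hsp90ab1 spans 0.14 (log2 units).

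Among small heat shock proteins, Hspb1, the inducible Hsp27 relative that is expressed in motor and sensory neurons, was the most variable member after Hspa1a among those above background. Its log2 intensity was 8.47 in replicate 2 and 8.74 in replicate 5, and between 8.89 and 8.92 in the other arrays. The SD of 0.18 fell to 0.073 without replicate 2, so that array accounted for most of the spread. Of the 8 members of this family, 5 were above background, and Hspb8, a partner of the co-chaperone Bag3, lay close to it at 7.51 ± 0.10 (SD, n = 6). The promoter of Hspb1 is shown because it held 2 separate elements of 2 units, in capitals, the first beginning at position -117 and the second ending at position -90 (GRCm38.p6, plus strand, chr5:135887769-135887868):
Hspb1: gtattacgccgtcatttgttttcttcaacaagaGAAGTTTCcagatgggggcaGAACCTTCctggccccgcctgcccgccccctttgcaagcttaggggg

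The inducible members did not vary as 1 group. Over the 10 pairs of the 5 members above background, r ranged from -0.27 to 0.83 with a mean of 0.23, whereas the mean over all pairs of genes above background was 0.0028. An r above 0.8 was found in 3 of these 10 pairs and in 5.19% of all pairs of genes. The 3 were Hsph1 with Hsp90aa1, Hsph1 with Hspb1 and Hspa1a with Dnajb1. For Hsph1 and Hspb1 the r of 0.82 became -0.61 without replicates 2 and 5. Hsph1 and Hsp90aa1 ran in nearly the same order, with an r of 0.83 (exact permutation p 0.0417, adjusted p 0.815 over 12792 genes) and a rho of 0.94 (exact permutation p 0.0167, adjusted p 0.836). The r was 0.64 without replicates 2 and 5, and 2.55% of genes had a higher r with Hsph1. Hsph1 and Dnajb1 had an r of -0.074 (exact permutation p 0.868, adjusted p 0.961) and a rho of -0.14 (exact permutation p 0.803, adjusted p 1), with an r of 0.62 without replicates 2 and 5. The mean r over the inducible pairs was -0.013 without replicate 2, 0.070 without replicate 8 and 0.35 without replicate 5, and 0.032 with Hspa1b included.

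Pairs seen afterwards to run alike fell into separate patterns. Hspa1a, Dnajb1 and Hspd1 were each highest in replicate 5. Dnajb1, the main J-domain partner of Hsp70 in the heat shock response, had a lowest log2 intensity of 8.95, a median of 9.13 and a highest of 9.28. The r of Hspa1a was 0.82 with Dnajb1 (exact permutation p 0.0403, adjusted p 0.644) and 0.92 with Hspd1 (exact permutation p 0.00972, adjusted p 0.490), with rho values of 0.89 (exact permutation p 0.0333, adjusted p 0.542) and 0.94 (exact permutation p 0.0167, adjusted p 0.542). Without replicates 5 and 8 these r values were 0.32 and 0.56. The other pattern joined Hspa8 to inducible members that were likewise lowest in replicate 2. The r of Hspa8 was 0.84 with Hsph1 (exact permutation p 0.0458, adjusted p 0.993) and 0.82 with Hspb1 (exact permutation p 0.0514, adjusted p 0.993). The rho values were 0.83 (exact permutation p 0.0583, adjusted p 1) and 0.54 (exact permutation p 0.297, adjusted p 1). Without replicates 2 and 8 they no longer held, with r values of 0.17 and 0.34. None of these relations passed adjustment over the table, which the exact test with 6 arrays could hardly allow. The pairs of this paragraph were chosen after their values were seen.

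**Figure D4:**
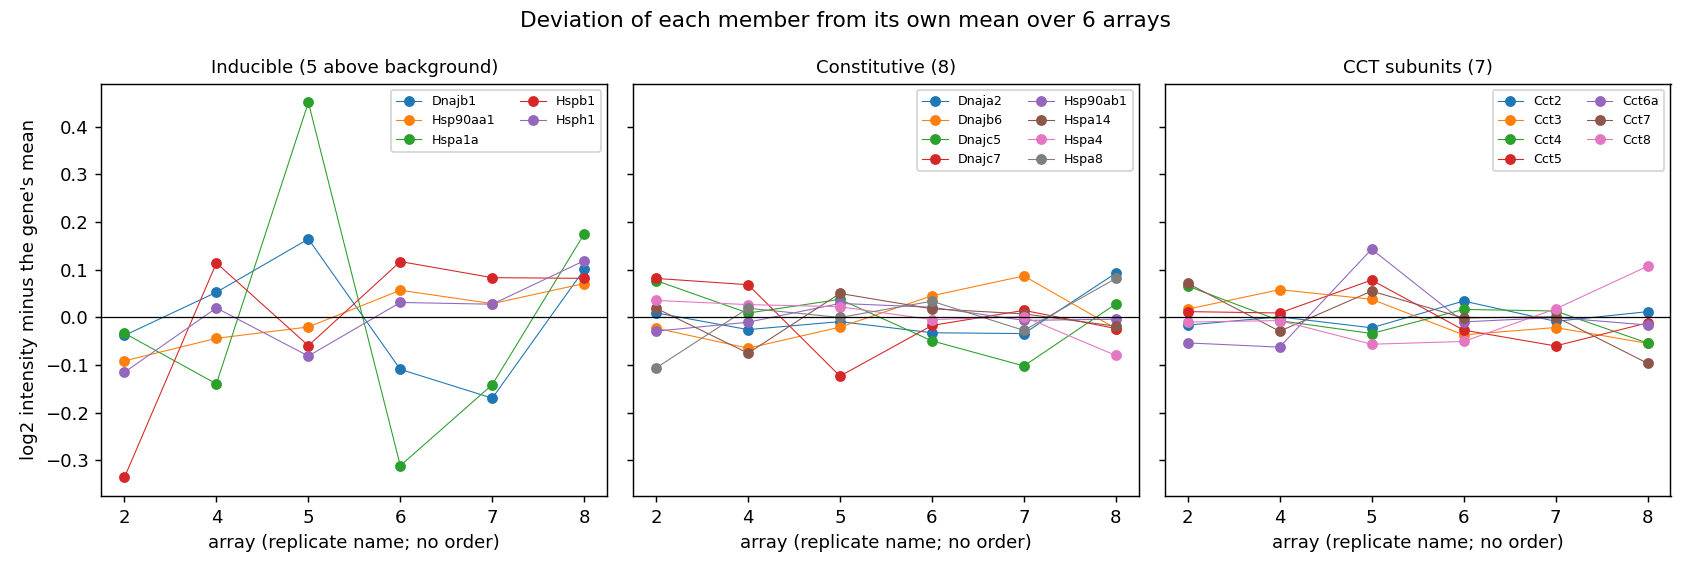
Log2 intensity minus the mean of the gene over 6 arrays (vertical axis) by array (horizontal axis), in panels for 5 inducible members, 8 constitutive members and 7 CCT subunits. Thin lines join the points of a gene and carry no order in time. Hspa1a is highest in replicate 5, Hspb1 is lowest in replicate 2, and the SD of the panel mean is 0.088 for inducible, 0.0066 for constitutive and 0.017 for CCT genes.

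The mean deviation of the 5 inducible members ran from -0.12 in replicate 2 to 0.11 in replicate 8, with an SD of 0.088. That of the 8 constitutive members stayed between -0.0076 and 0.0080, with an SD of 0.0066. The mean pairwise r of the constitutive members was -0.11. For the 7 CCT subunits the SD of the mean deviation was 0.017. These SDs also depend on the spread of each gene and on the number of genes averaged. They therefore do not show by themselves how far the members of a group moved together.

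In mitochondria, Hspa9 (mortalin) pulls proteins through the inner membrane, and the Hsp60 ring encoded by Hspd1 folds them under a lid encoded by Hspe1. Hspa9 had a lowest log2 intensity of 11.63, a median of 11.78 and a highest of 11.89, and its SD of 0.11 was larger than that of 86.6% of genes of like level. Hspd1 ran from 10.65 to 10.97 with a median of 10.77 and an SD of 0.11. Hspe1 ran from 9.66 to 9.78 with a median of 9.69 and an SD of 0.053. Hspd1 and Hspe1 lie head to head with starts 216 bases apart, and their promoter is shown because a single heat shock element lies between both starts. Capitals mark overlapping elements of 3 units, which lie at positions -89 to -72 relative to the Hspe1 start (GRCm38.p6, plus strand, chr1:55088008-55088117):
Hspe1: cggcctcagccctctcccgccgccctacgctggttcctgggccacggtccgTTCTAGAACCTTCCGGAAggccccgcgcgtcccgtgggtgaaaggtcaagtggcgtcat

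The shared promoter did not go with a tight relation over these arrays. Pearson's r between Hspd1 and Hspe1 was 0.33 (exact permutation p 0.518, adjusted p 0.975), with a rho of 0.37 (exact permutation p 0.497, adjusted p 0.925), and 29.1% of genes had a higher r with Hspd1. Both were highest in replicate 5, but replicate 7 was lowest for Hspd1 and second highest for Hspe1. Without replicates 5 and 7 the r was 0.91. The SD of Hspd1 was 2.16 times that of Hspe1, with a range of 1.74 to 2.38 when any 1 array was left out.

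The CCT chaperonin is a double ring of different subunits made in matched amounts, and the 7 numbered subunits Cct2, Cct3, Cct4, Cct5, Cct6a, Cct7 and Cct8 were all above background. Their median SD was 0.046, and 0 of 7 exceeded the median of all genes. Among genes of like level, however, 3 of 7 lay above the middle, with Cct6a at 69.4%, Cct8 at 51.6% and Cct7 at 51.0%. Cct2 was the steadiest of all members, from 11.94 to 12.00 with a median of 11.96 and an SD of 0.021. Under median centring its SD was 0.037, above the 0.025 of Hsp90ab1. Cct6a had the largest SD of the ring, 0.074, with replicate 5 at 11.50 and the other arrays at 11.30 to 11.36. The mean pairwise r between the subunits was -0.087, against 0.0028 over all pairs of genes above background. With SDs this small, some of which changed under median centring, this r says little about whether the subunits vary together. Tcp1, the subunit that the naming rule leaves out, had a like spread at 11.43 ± 0.054 (log2 intensity, SD, n = 6). Cct6b and Cct8l1, the other genes of this name, were below background.

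J-domain proteins made up 41 of the 75 members, and 38 of them were above background. Their median SD was 0.074, close to that of all genes. By family the medians were 0.096 over 4 Dnaja genes, 0.071 over 11 Dnajb genes and 0.074 over 23 Dnajc genes. The median of all genes was exceeded by 3 of 4 Dnaja, 4 of 11 Dnajb and 9 of 23 Dnajc genes. Dnaja2, a general partner of Hsp70, was the steadiest Dnaja gene at 10.25 ± 0.048 (log2 intensity, SD, n = 6), and without replicate 8 its SD was 0.018. The smallest SD of any J-domain gene was that of Dnajc2, a ribosome-associated partner of Hspa14, at 9.06 ± 0.024. Dnajc27 and Dnajc3, an inhibitor of the kinase PERK, were also among the 5 steadiest members, at 8.78 ± 0.036 and 9.48 ± 0.041 (log2 intensity, SD, n = 6). The largest J-domain SDs were those of Dnajb13 at 7.68 ± 0.17 and Dnajb8 at 7.59 ± 0.16, both known from the testis and both close to background. Hspb2, a small heat shock protein of muscle, was the other member near background with a large SD, at 7.63 ± 0.14 (log2 intensity, SD, n = 6). On the arrays these 3 genes were above background in 5 (Dnajb13), 4 (Dnajb8) and 5 (Hspb2) of 6 cases.

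Dnajb6 is known for holding back the aggregation of polyglutamine proteins such as mutant huntingtin. It had a lowest log2 intensity of 10.91, a median of 10.96 and a highest of 11.06, an SD of 0.055. It was the constitutive gene with a heat shock element of 3 units, shown in capitals in the 100 bases before its start (GRCm38.p6, plus strand, chr5:29735798-29735897):
Dnajb6: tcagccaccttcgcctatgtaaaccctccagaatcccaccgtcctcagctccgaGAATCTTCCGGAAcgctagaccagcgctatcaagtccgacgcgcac

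Dnajc5, the cysteine string protein of synaptic vesicles, ran from 10.70 to 10.88 with a median of 10.82. Dnajc7, which binds both Hsp70 and Hsp90, ran from 10.33 in replicate 5 to 10.53 in replicate 2 with a median of 10.45, and without replicate 5 its SD fell from 0.074 to 0.048. Dnajc6, the auxilin that directs Hspa8 to clathrin coats in nerve terminals, was above background at 9.10 ± 0.11 (log2 intensity, SD, n = 6).

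The study corrected all genes for Olig2, Mnx1, Isl1 and Lhx3, transcription factors of motor neurons and their progenitors, so the members were related to the mean of these 4 genes. This mean ran from 9.03 in replicate 7 to 9.23 in replicate 5 (log2 intensity). By limma with Benjamini-Hochberg adjustment over 12789 genes, 0 of 65 members and 0% of all genes were associated with it, and the lowest adjusted p was 0.999. At an unadjusted p under 0.05 there were 7 of 65 members, or 10.8%, against 3.98% of all genes. At that level, positive slopes were found in 5 of 65 members, against 280 of 12789 genes, or 2.19%. The 5 were Dnajc8, Hspa1a, Hspd1, Dnajb1 and Hspb8, while Dnajc18 and Dnajc7 had negative slopes. By the exact permutation test of r the count was 3 of 65, or 4.62%, against 4.71% of all genes, and 0 after adjustment. Hspa1a had the steepest slope of these, 2.87 ± 0.87 per log2 unit of the mean (limma, SE, adjusted p 0.999). Its r with the mean was 0.79 (exact permutation p 0.0542, adjusted p 0.9995), its rho was 0.60 (exact permutation p 0.242, adjusted p 1), and r was -0.79 without replicates 5 and 8. The relation of Hspa1a to the mean thus rested on those arrays. Without them r also fell from 0.84 to 0.057 for Hspd1 and from 0.80 to 0.18 for Dnajb1. For Dnajc8 it went from 0.96 to 0.63 and for Hspb8 from 0.82 to 0.62. A smaller share of motor neurons and less RNA of a gene in each cell cannot be told apart in these aggregates.

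The regulators and co-chaperones around the members were mostly as steady as other genes. Of 35 listed genes, 33 were matched and 32 were above background, with a median SD of 0.069, and 0 of these 32 were associated with the 4-gene mean. Hsf1, the main heat shock factor, had a log2 intensity of 10.11 ± 0.041 and Hsf2 had 10.28 ± 0.049, while Hsf4, known from the lens, lay close to background at 7.80 ± 0.10 (SD, n = 6). Of 7 further targets of heat shock factors outside the naming rule, 6 were above background with a median SD of 0.065, and Cryab was below it. Among them, Bag3, a partner of small heat shock proteins, had an SD of 0.053, and Stip1, which links Hsp70 to Hsp90, had 0.043. The largest SD among the 6 was 0.090 in Chordc1, below those of Hspa1a, Hspb1 and Dnajb1 and above those of Hsph1 and Hsp90aa1. No test of this difference was made.

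The genes most like a member over the 6 arrays were taken from all genes above background. For Hspa1a they were Ciapin1, Galt and Ndst1, with r from 0.991 to 0.995, and for Hspd1 they were Snx19, Rragd and Leng8, from 0.991 to 0.997. For Hsph1 they were Mapk1ip1l, Nup214 and Epm2aip1, with r from 0.984 to 0.988, and for Hspa4 they were Raly, Plekho2 and Zfand2b, at 0.994 each. For Hspa8 they were Pgpep1, Srrm2 and Rps27, from 0.983 to 0.989, and for Hsp90ab1 they were Sox3, Chst2 and Rps6kb2, from 0.974 to 0.976. By the exact permutation test 0 genes passed adjustment for any of the 6 members, with lowest adjusted p values of 0.408 to 0.993. With 720 pairings the exact p of r cannot fall below 0.00139. A gene could therefore pass only if many genes shared that lowest p, and the failure says little about any 1 relation.

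Replicates 5 and 8 held the extremes of many members. Replicate 5 was the highest or lowest array in 31 of 65 members, or 47.7%, against 40.0% of all genes above background, and replicate 8 in 29, or 44.6%, against 54.0%. In the other arrays the count ran from 16 to 20 members, and the share of all genes from 21.8% to 30.2%. A single array stood far from the others, by Dixon's ratio of the gap to the range, in 5 of 65 members (Hspa4, Dnaja2, Cct6a, Dnajc10 and Dnajc24), or 7.69%, against 6.97% of all genes.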

How the data were processed

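Embryoid bodies from 6 cultures were measured on Affymetrix mouse exon arrays, 1 array each. The deposited values are gene-level intensities on a linear scale, which the authors made by Robust Multi-array Averaging as the mean over the exons of a gene. The labels name Affymetrix Expression Console and RMA, and the methods name the Aroma Affymetrix package. Which arrays were normalized together, the genome build, and whether these arrays had passed the study's removal of outliers are not given in the sources used here. Averaging over exons does not separate near-identical genes such as Hspa1a and Hspa1b. The table held 0 unmapped columns.

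The log2 of each intensity was taken without a pseudocount. The background level was the 95th percentile of the means of 1032 olfactory receptor genes. Associations with the 4-gene mean were fitted with limma 3.58.1 in R 4.3.3 over all genes above background other than those 4. Two-sided exact permutation tests used all 720 pairings of arrays, with Benjamini-Hochberg adjustment over all genes for each member. The exact p of r therefore has a lowest possible value of 0.00139, and adjusted p values from this test cannot separate strong from weak relations. Heat shock elements were searched on both strands of the RefSeq promoters of GRCm38.p6. The number of arrays limits the precision, nothing in the labels says which cultures shared a batch, and spread between samples may be technical. The members and lists were chosen with earlier results of these data known. Genes named are the inducible and constitutive lists, the CCT subunits, Hspa9, Hspd1 and Hspe1, the 5 members with the largest and the 5 with the smallest SD, those with 1 array far from the others, and the 3 genes most like each seed gene. The comparison with the 500 nearest genes in level was added after the values were seen, as were the members named for their known role. Alternatives were scaling, pseudocount, background level, filter, list, measure of spread, test and each array left out. The scripts were tested on simulated data.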

Additional observations from a re-analysis of the deposited data

Results flagged for a closer look

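In 5 members a single array lay far from the other arrays, by Dixon's ratio of the gap to the whole range against its 95% critical value for 6 values. Chance alone picks about 1 in 20 sets. Of the 65 members above background these 5 were 7.69%, against 6.97% of all genes above background. The array was replicate 8 for Hspa4, which was lowest there at 11.13 with a ratio of 0.65, for Dnaja2, which was highest there at 10.34 with a ratio of 0.66, and for Dnajc10, a reductase of the endoplasmic reticulum, which was highest there at 9.84 with a ratio of 0.69 (log2 intensities). The array was replicate 5 for Cct6a, which was highest there at 11.50 with a ratio of 0.70, and for Dnajc24, which acts in the synthesis of diphthamide and was lowest there at 9.04 with a ratio of 0.83. Without replicate 5 the SD of Dnajc24 fell from 0.073 to 0.014 and that of Cct6a from 0.074 to 0.028. Without replicate 8 the SD of Dnajc10 fell from 0.085 to 0.034. The cause was not tested.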

How the results depend on the processing

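The count of 65 members above background ranged from 64 to 66 with 1 array left out, and was 53 when the 99th percentile set the background. Hspa1a was among those lost at that level, and the inducible median SD over the rest was 0.11. The inducible median SD of 0.13 ranged from 0.073 (without replicate 2) to 0.14 with 1 array left out, and was 0.076 when the scaled median absolute deviation replaced the SD. The constitutive median SD of 0.052 ranged from 0.048 to 0.054, and was 0.031 by the median absolute deviation and 0.062 under median centring of the arrays. The inducible median exceeded the constitutive median under each alternative run. The difference of 0.076 ranged from 0.022 (without replicate 2) to 0.089 with 1 array left out, and was 0.051 with the broad inducible list and 0.055 without Hspa1a, an alternative chosen after seeing the data. The mean r over inducible pairs, 0.23, ranged from -0.013 (without replicate 2) to 0.35 with 1 array left out. The count of members associated with the motor neuron mean stayed at 0 in all alternatives run. Of 288 SDs of named members under alternatives, 262 moved by less than the approximate standard error of an SD over 6 arrays. No paired analysis was possible because there is 1 group. Signal near background limits Hspa1b, Hspb2, Hspb8, Dnajb8 and Dnajb13, and Hspa1a did not pass the stricter background. The cause of the changes with replicate 2 was not tested.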
